A study of Oryza sativa with 6 samples.

Results

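The 56 rice genes described here encode the transcription factors and the repressors of the nuclear auxin response: the auxin response factors OsARF1 to OsARF25 (25 loci) and the Aux/IAA proteins OsIAA1 to OsIAA31 (31 loci). They were taken by locus number from a list of the 2 families, and no measured value decided which genes are in it. The list itself was chosen with earlier results of these data known. Of the 24592 loci named in a deposited list of 29513 PIF4-GFP peaks, 41 belonged to them, 24 ARF loci and 17 Aux/IAA loci, with 51 peaks in all.

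Auxin acts by removing a repressor. Aux/IAA proteins bind ARF proteins and bring a co-repressor to the genes the ARFs sit on; auxin joins an F-box receptor to the Aux/IAA protein, which is then degraded, and the ARF is released. ARFs with a glutamine-rich middle region mostly activate transcription, while the others are counted as repressors, and several ARF transcripts are cut by small RNAs. Most Aux/IAA genes are themselves induced by auxin, so that the response limits itself. PIF4 is a basic helix-loop-helix factor downstream of the phytochromes; in Arabidopsis it drives elongation in shade and warmth partly through auxin synthesis and signalling.

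The samples were leaves of 3-week-old rice in pots under drought and changing light, a regime that both groups shared. Rice overexpressing PIF4 fused to GFP (PIF4-GFP, 3 libraries) was set beside a GFP mock (3 libraries). The genotype labels carry the replicate numbers. The sources used here give neither the transgene's promoter nor the number of independent lines. Nor do they say whether replicates were separate plants, and p-values therefore reflect sample-to-sample spread that could be technical. The series is described as chromatin immunoprecipitation, which recovers DNA bound by a tagged protein, whereas the sample labels name total RNA. Peak names begin with PIF4-GFP1, so the list may come from 1 library, and no GFP mock peaks were used here. The 6 expression tables hold FPKM values (reads scaled by gene length and library size) for 1177 genes, mostly transcription factors, from libraries of 14933740 to 17919095 reads as solved from the values. Genes that mark leaf tissue, such as those of photosynthesis, were not analysed here.

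Peaks lay at the start of nearly every ARF gene and of about every other Aux/IAA gene. A peak of the promoter class was listed for 24 of 25 ARF loci (96.0%, Wilson 95% interval 80.5 to 99.3%) and for 17 of 31 Aux/IAA loci (54.8%, 37.8 to 70.8%). The background was 71.6% of the 1153 loci in the expression tables. The ARF share lay above it and the Aux/IAA share below it, and the intervals of the 2 families did not overlap. Both families together, at 41 of 56 (73.2%), were near the background. With 1 peak list and members chosen with results of these data known, no test of this difference was made. The intervals cover counting error only, and the loci of the tables, which include 23 ARF loci and no Aux/IAA locus, are a background of transcription factors. The share among all rice genes was not computed, so above and below refer to this background only. In the whole list 22940 loci had a promoter peak.

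**Figure D1:**
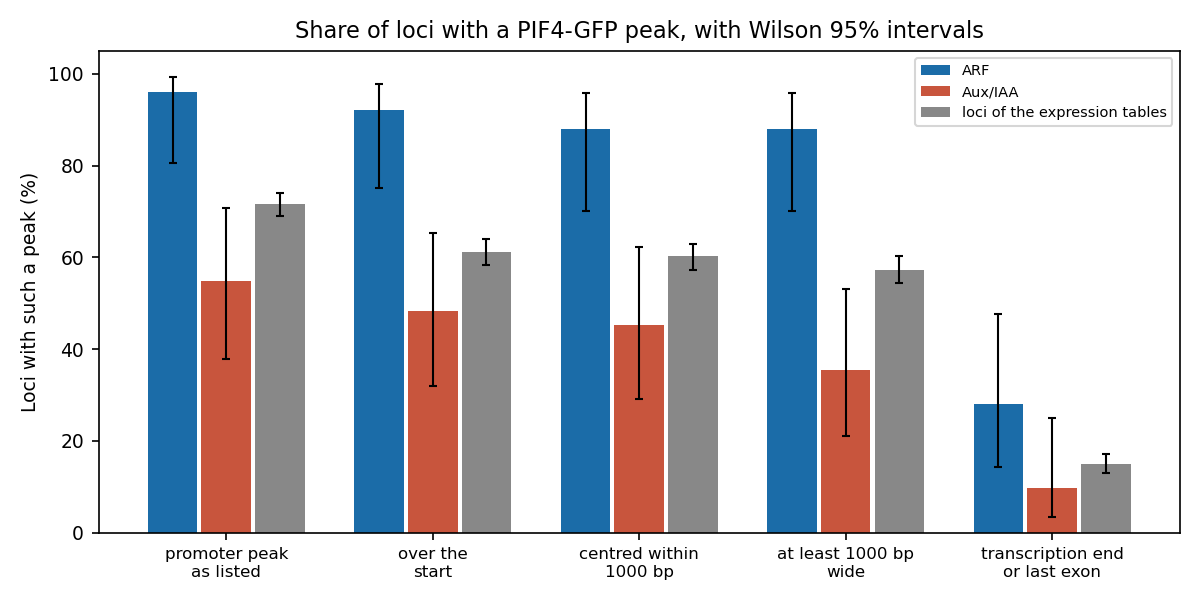
Share of loci (%) with a PIF4-GFP peak under 5 definitions, for ARF, Aux/IAA and all loci of the expression tables; bars are shares and lines Wilson 95% intervals. ARF bars stand above the grey bars under each definition and Aux/IAA bars below them, from 96.0% against 54.8% for any promoter peak to 28.0% against 9.68% for peaks at the gene's end.

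The order of the families was the same under stricter definitions. A promoter peak that covered the start itself was found at 23 ARF loci (92.0%) and 15 Aux/IAA loci (48.4%), against a background of 61.1%. Counted over promoter peaks and not loci, 23 of 24 ARF peaks (95.8%) and 15 of 17 Aux/IAA peaks (88.2%) covered it, against 87.3% of all promoter peaks. For a peak centred within 1000 bp of the start the counts were 22 (88.0%) and 14 (45.2%), against 60.2%. A width of at least 1000 bp kept 22 ARF loci (88.0%) and 11 Aux/IAA loci (35.5%), against 57.3%. When a peak of any class was counted, the numbers stayed at 24 and 17, against 77.0%: every member with a peak had one at its promoter.

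The activator-type ARFs include the nearest rice relatives of the Arabidopsis factors that switch on auxin genes, and 8 of their 9 loci had a promoter peak centred within 1000 bp of the start (88.9%, interval 56.5 to 98.0%). The background was 71.6% for a promoter peak and 60.2% for one within that distance, both inside the interval. OsARF11 (LOC_Os04g56850), the closest rice relative of MONOPTEROS, which patterns the Arabidopsis embryo and vasculature, had the widest, 4200 bp on chromosome 4 from 33892800 to 33896999, reaching 2605 bp upstream of the start. At OsARF5 (LOC_Os02g04810) the peak was 800 bp wide (chromosome 2, 2214200 to 2214999) and centred 33 bp downstream of the start. OsARF19 (LOC_Os06g48950), which affects leaf angle in rice, had a peak of 1200 bp on chromosome 6 from 29657000 to 29658199 that began 30 bp past the start, the only ARF promoter peak that did not cover it. OsARF21 (LOC_Os08g40900) had a peak of 1000 bp on chromosome 8 from 25877000 to 25877999.

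OsARF16 (LOC_Os06g09660), needed for auxin, phosphate and iron responses of rice roots, was the ARF without a listed peak. The expression tables place it on the plus strand of chromosome 6 from 4926019 to 4932612. The nearest listed peak began 588 bp beyond its end, from 4933200 to 4934799, and was assigned to the start of LOC_Os06g09679. On the other side the nearest listed locus was LOC_Os06g09630, with a peak from 4900000 to 4914399. Peak numbers rise along each chromosome, and 3 numbers between these neighbours are not in the list. In the list as a whole 49.2% of the numbers up to 60035 occur, and no listed peak is intergenic, so a locus with unlisted numbers around it is not shown to lack a called peak.

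All 16 repressor-type ARFs had a promoter peak (lower bound of the interval 80.6%, background 71.6%). Each of these covered the start, as did 87.3% of all promoter peaks. None of them was under 1000 bp wide (the narrowest had 1200 bp), against 27.2% of all promoter peaks. They had a median width of 2300 bp, with quartiles of 1800 and 2950 bp, against 1200 bp (950 and 1450 bp) for the 8 activator-type peaks and 1400 bp (800 and 2200 bp) for all 23278 promoter peaks of the list. The widest belonged to OsARF24 (LOC_Os12g29520), 6400 bp on chromosome 12 from 17575800 to 17582199, which ran from 4302 bp upstream to 2097 bp downstream of the start and was centred 1103 bp upstream, farther than at any other ARF. OsARF20 (LOC_Os07g08520) followed with 4400 bp (chromosome 7, 4400400 to 4404799), then OsARF8 (LOC_Os02g41800) with 4200 bp (chromosome 2, 25133000 to 25137199). The peak of OsARF23 (LOC_Os11g32110), which with OsARF24 controls a formin gene of actin organisation in rice, was 2400 bp wide (chromosome 11, 18939600 to 18941999). OsARF1 (LOC_Os01g13520) had 2200 bp on chromosome 1 from 7546200 to 7548399. These widths are multiples of 200 bp with 1 exception in the whole list, and the difference between the types is a description of 24 peaks.

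**Figure D2:**
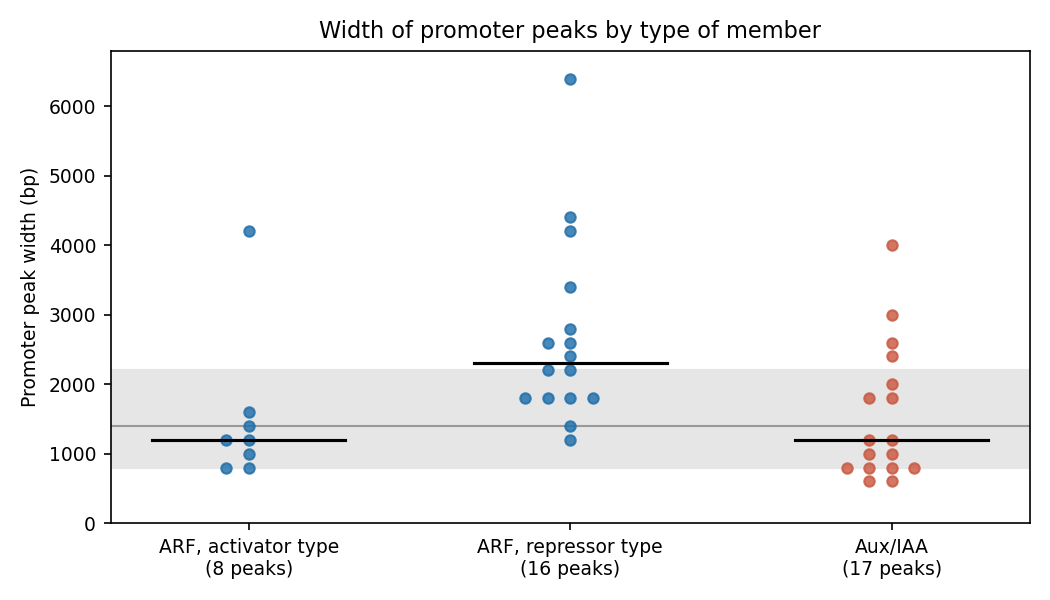
Width (bp) of each promoter peak, 1 point per member, by type; black lines are medians, and the grey band and line are the quartiles and median of all promoter peaks. Repressor-type ARFs have a median of 2300 bp, and activator-type ARFs and Aux/IAA members 1200 bp each.

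Grouped by the small RNA known to cut their transcripts, the ARF peaks lay in ranges that partly overlapped. These groups are not separate from the types. All targets of miR160 and TAS3 small RNAs were of the repressor type, and all targets of miR167 of the activator type. The 4 targets of miR160 (OsARF8, OsARF10, OsARF18 and OsARF22) had peaks of 1800 to 4200 bp, all centred downstream of the start, by 439 to 1657 bp, and reaching 1338 to 3756 bp into the gene. Among them OsARF8 had the ARF peak centred farthest downstream, at 1657 bp, and OsARF10 (LOC_Os04g43910) was centred at 881 bp (chromosome 4, 26013000 to 26015599). The 4 targets of miR167 (OsARF6, OsARF12, OsARF17 and OsARF25), relatives of the Arabidopsis factors of flower maturation, had narrower peaks of 800 to 1600 bp centred 160 to 670 bp downstream. OsARF17 (LOC_Os06g46410), which takes part in antiviral defence in rice, had 800 bp on chromosome 6 from 28164000 to 28164799. The 4 targets of TAS3 small RNAs (OsARF2, OsARF3, OsARF14 and OsARF15), the ETTIN class, had peaks of 1200 to 2600 bp. OsARF3 (LOC_Os01g54990) and OsARF14 were centred 294 and 151 bp upstream of the start, and OsARF15 and OsARF2 119 and 382 bp downstream. Few peaks were centred upstream in general, 4 of 24 ARF promoter peaks (16.7%) and 30.7% of all promoter peaks. OsARF23, in none of these groups, was also centred far downstream, at 916 bp. With 4 members each, the ranges of the groups describe single peaks.

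The 17 promoter peaks of Aux/IAA genes had a smaller median width than those of the ARFs and a median downstream edge nearer the start. The same median width was found for activator-type ARFs, so the gap in width lay between Aux/IAA genes and repressor-type ARFs, and it was not tested. At the median the Aux/IAA peaks were 1200 bp wide, with quartiles of 800 and 2000 bp, against 1800 bp (1350 and 2650 bp) for the 24 ARF promoter peaks. Their downstream edge lay 719 bp past the start at the median, against 1293 bp for ARFs and 813 bp for all promoter peaks, while the upstream edges were more alike, at -355, -443 and -341 bp. Of the Aux/IAA peaks 6 of 17 (35.3%) were under 1000 bp wide, against 2 of 24 ARF peaks (8.33%) and a background of 27.2%. Widths of 2000 bp or more were found at 5 of 17 (29.4%) and 11 of 24 (45.8%), background 33.3%. Both families had peaks centred mostly downstream: 6 of 17 Aux/IAA peaks (35.3%) and 4 of 24 ARF peaks (16.7%) were centred upstream, background 30.7%.

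**Figure D3:**
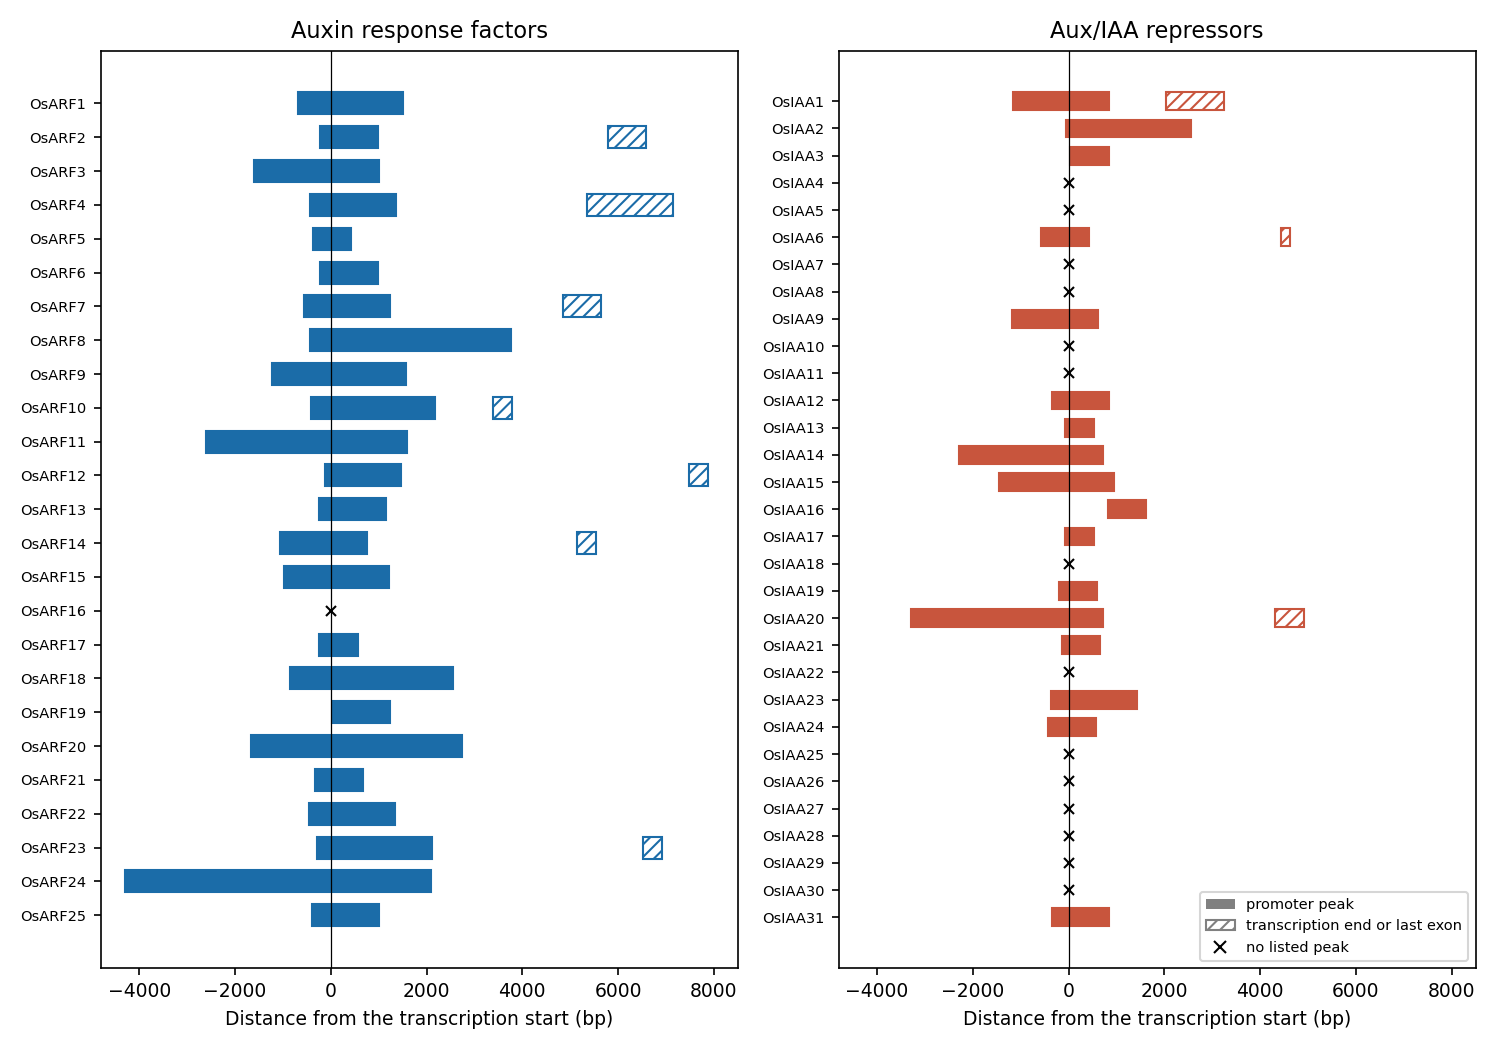
Extent of each listed peak in bp from the transcription start (vertical line) of its gene, with ARFs on the left and Aux/IAA genes on the right; filled bars are promoter peaks, hatched bars peaks at the transcription end or in the last exon, and crosses members with no listed peak. OsARF16 and 14 Aux/IAA genes carry a cross, and OsARF24 spans from -4302 to 2097 bp.

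Of the widest Aux/IAA peaks, most were centred upstream, and OsIAA2 and OsIAA23 downstream. OsIAA20 (LOC_Os06g07040), linked to drought and salt tolerance in rice, had 4000 bp on chromosome 6 from 3345600 to 3349599, centred 1281 bp upstream of the start. OsIAA14 (LOC_Os03g58350) had 3000 bp (chromosome 3, 33246600 to 33249599), centred 781 bp upstream. OsIAA15 (LOC_Os05g08570) had 2400 bp (chromosome 5, 4683600 to 4685999), centred 255 bp upstream, and OsIAA9 (LOC_Os02g56120), whose overexpression weakens the response to gravity, 1800 bp (chromosome 2, 34347400 to 34349199), centred 283 bp upstream. OsIAA2 (LOC_Os01g09450) was also wide but centred downstream, with 2600 bp (chromosome 1, 4816800 to 4819399) centred at 1254 bp, the farthest of the family. OsIAA1 (LOC_Os01g08320), which acts in auxin and brassinosteroid responses, had 2000 bp on chromosome 1 from 4075600 to 4077599.

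The narrowest Aux/IAA promoter peaks measured 600 bp. They lay at OsIAA13 (LOC_Os03g53150), which with OsIAA11 acts in lateral root formation (chromosome 3, 30482800 to 30483399), and at OsIAA17 (LOC_Os05g14180, chromosome 5, 7950800 to 7951399), and were centred 232 and 227 bp downstream of the start. Peaks of 800 bp were listed for OsIAA3, OsIAA16, OsIAA19 and OsIAA21. Those of OsIAA3 and OsIAA16 did not cover the start: they began 38 and 818 bp past it, the latter on chromosome 5 from 5330400 to 5331199. OsIAA23 (LOC_Os06g39590), needed to maintain the quiescent centre of the rice root, had 1800 bp on chromosome 6 from 23501600 to 23503399, centred 526 bp downstream. OsIAA6 (LOC_Os01g53880), which takes part in drought tolerance and tiller growth, had 1000 bp over its start on chromosome 1 from 30975200 to 30976199, and OsIAA24 on chromosome 7 had 1000 bp from 4356000 to 4356999.

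The 14 Aux/IAA genes without a listed peak were OsIAA4, OsIAA5, OsIAA7, OsIAA8, OsIAA10, OsIAA11, OsIAA18, OsIAA22 and OsIAA25 to OsIAA30. At 4 of them, OsIAA5, OsIAA8, OsIAA11 and OsIAA25, no peak number was missing between the peaks of the nearest listed loci on either side, which lay 2400, 12600, 20000 and 9400 bp apart. Whether a peak assigned to a neighbouring locus reached these 4 genes was not checked. At the other 10, between 1 and 6 numbers were missing, and where those numbers lie was not tested. For OsIAA10 (LOC_Os02g57250), which a protein of rice dwarf virus binds, 3 numbers were missing in the 16000 bp from 35068799 to 35084800 on chromosome 2. For OsIAA18 (LOC_Os05g44810), a gene of salt and osmotic tolerance, 5 were missing in 48600 bp, and for OsIAA4 2 in 23200 bp.

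Some neighbouring members shared the presence or absence of a listed peak and others did not. OsIAA11 and OsIAA12 have consecutive locus numbers on chromosome 3, and OsIAA12 alone had a peak, 1200 bp from 24212200 to 24213399. On chromosome 12 OsIAA31 had a peak of 1200 bp from 25325200 to 25326399, while its neighbour OsIAA30 had none. The trio OsIAA27, OsIAA28 and OsIAA29 on chromosome 11 lay in 55600 bp with no listed peak, from 6321599 to 6377200. Between the nearest listed loci, 6 peak numbers were missing around the trio, 2 around OsIAA30 and 0 around OsIAA11. The trio and OsIAA30 are therefore not shown to lack a called peak. At OsIAA11, whether a peak assigned to a neighbouring locus reached the gene was not checked. OsIAA24 and OsARF20 are close on chromosome 7 and each had a peak, 43400 bp apart and assigned to its own start. The list assigns each peak to 1 locus only.

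In the 10 members with a second peak, that peak lay at the end of the gene. In the whole list 4355 loci had 2 or more peaks, and 2801 loci had a promoter peak and an end peak. The share of second peaks at gene ends was not counted there, so this position is not shown to be particular to the members. Of the 24 ARF loci with a promoter peak 7 also had a peak at the transcription end or in the last exon (29.2%), and of the 17 Aux/IAA loci 3 (17.6%), against 12.2% of all 22940 loci with a promoter peak and 15.8% of those in the expression tables. The intervals of both families (14.9 to 49.2% and 6.19 to 41.0%) include the value of the tables; the ARF interval lies above the 12.2% of all loci and the Aux/IAA interval includes it. Loci with 2 or more peaks made up 17.7% of all loci with a peak and 21.2% of those in the expression tables. No member had more than 2 peaks, and the share of all loci with more than 2 was not counted. No member had an intron peak, but only 1566 of all 29513 listed peaks were of that class. With 51 member peaks, this absence was not read as a trait of the members. OsARF7 (LOC_Os02g35140) carried its second peak in exon 14 of 14 (chromosome 2, 21103000 to 21103799), OsARF14 in exon 10 of 10 (chromosome 5, 25561000 to 25561399) and OsIAA1 in exon 5 of 5 (chromosome 1, 4073200 to 4074399).

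The 7 ARF end peaks, 2 of them in a last exon, had a median of 400 bp and were centred 3581 to 7670 bp from the start. All 2442 peaks of the transcription end class had a median of 1200 bp, with quartiles of 600 and 2600 bp, and the difference was not tested. OsARF4 (LOC_Os01g70270), a regulator of grain size, had the widest ARF end peak, with 1800 bp on chromosome 1 from 40701000 to 40702799. It was as wide as the promoter peak of OsARF4 from 40695200 to 40696999. OsARF2 had 800 bp at its end (chromosome 1, 27500600 to 27501399), and OsARF7 had 800 bp in its last exon. Those of OsARF10, OsARF12 and OsARF23 measured 400 bp, the one at OsARF12 lying on chromosome 4 from 34278000 to 34278399. The end peaks of OsIAA6 and OsIAA20 measured 200 and 600 bp. Of the ARFs with a promoter peak, 6 of 16 of the repressor type (37.5%, 18.5 to 61.4%) and 1 of 8 of the activator type, OsARF12 (12.5%, 2.24 to 47.1%), had an end peak, and these intervals overlap.

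Gene starts in the list and in the expression tables were close for most ARFs: of 23 rows with a promoter peak at their locus, 18 agreed within 500 bp. OsARF3 and OsARF15 differed by 1 bp. OsARF12 differed by 4430 bp, and OsARF14 by 3079 bp. OsARF21 is split over 2 rows, of which Os08g0520550 differed by 3 bp and Os08g0520500, with a span of 608 bp, by 6237 bp. OsARF2 and OsARF6 differed by 528 and 620 bp.

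The expression tables held 24 rows for 23 ARF loci, all except OsARF11 and OsARF20, and none of the 14 that entered the fit passed the test between the groups. The gene names on the rows limit every value that follows. In 917 rows the FPKM values resolve into whole reads and 1 length per row, and these lengths were unrelated to the span of the gene on the row (Spearman correlation across rows 0.024, a description). Among 15 ARF rows with a known length, the lengths ran from 312 to 3978 bp with a median of 807 bp. In the rows of OsARF12 (3978 bp in a span of 2892 bp) and OsARF21 (1287 bp in 608 bp) the length exceeded the whole gene, as in 191 of all 917 rows. A value is therefore that of a row labelled with an ARF, and not of an identified transcript. In bulk leaves, moreover, fewer cells of a type and less RNA per cell cannot be told apart.

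**Figure D4:**
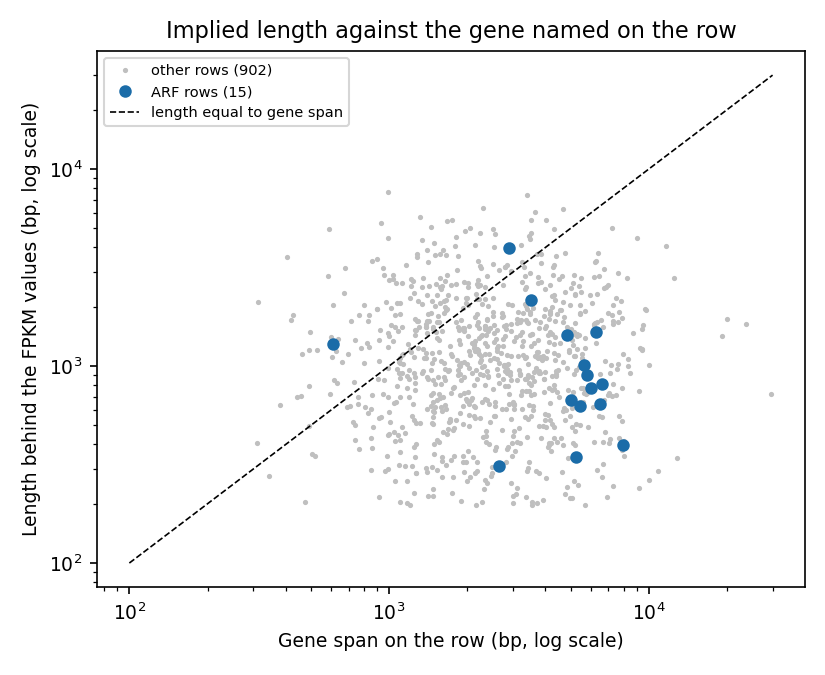
Length (bp) behind the FPKM values of a row against the span (bp) of the gene named on it, both on log scales; blue points are the 15 ARF rows and grey points the other rows. Points do not follow the gene span, and OsARF12 and OsARF21 lie above the dashed line where length equals span.

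The row labelled OsARF23 was the highest of the ARF rows. It had 72.9, 83.0 and 82.1 FPKM in PIF4-GFP and 79.5, 77.8 and 86.5 FPKM in GFP mock, from 1768 to 2227 reads per library. The groups overlapped, with means of 79.3 ± 5.57 and 81.3 ± 4.63 FPKM (SD, n = 3 each) and a difference of -0.03 on the log2(FPKM + 1) scale (SE 0.08, limma adjusted p = 0.935). For OsARF22 the row held 43.2, 46.5 and 56.6 FPKM in PIF4-GFP and 48.8, 50.8 and 58.4 in GFP mock. Its spread within each group exceeded the difference between their means, 48.8 ± 6.95 and 52.6 ± 5.05 FPKM. OsARF9 stood at 43.4, 38.1 and 48.1 against 50.2, 39.4 and 45.2 FPKM, and OsARF7 at 34.1, 35.0 and 32.8 against 34.7, 35.6 and 32.9 FPKM. Both rows overlapped between the groups. OsARF3 had 23.3, 23.3 and 24.6 FPKM against 26.1, 22.8 and 27.0, and OsARF5 16.1, 17.4 and 20.0 against 20.7, 18.9 and 19.5, again overlapping.

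In the order of these levels, on the FPKM scale, neighbouring rows were not always apart. OsARF23 stood above OsARF22 in every library, from 72.9 to 86.5 against 43.2 to 58.4 FPKM. OsARF22 and OsARF9 overlapped, while all values of OsARF7 lay below all of OsARF9. OsARF3 lay below OsARF7 and above OsARF5 with no overlap. The rows of OsARF6, OsARF12 and OsARF21, with means of 12.5, 11.6 and 11.0 FPKM, could not be ordered beyond their spread.

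**Figure D5:**
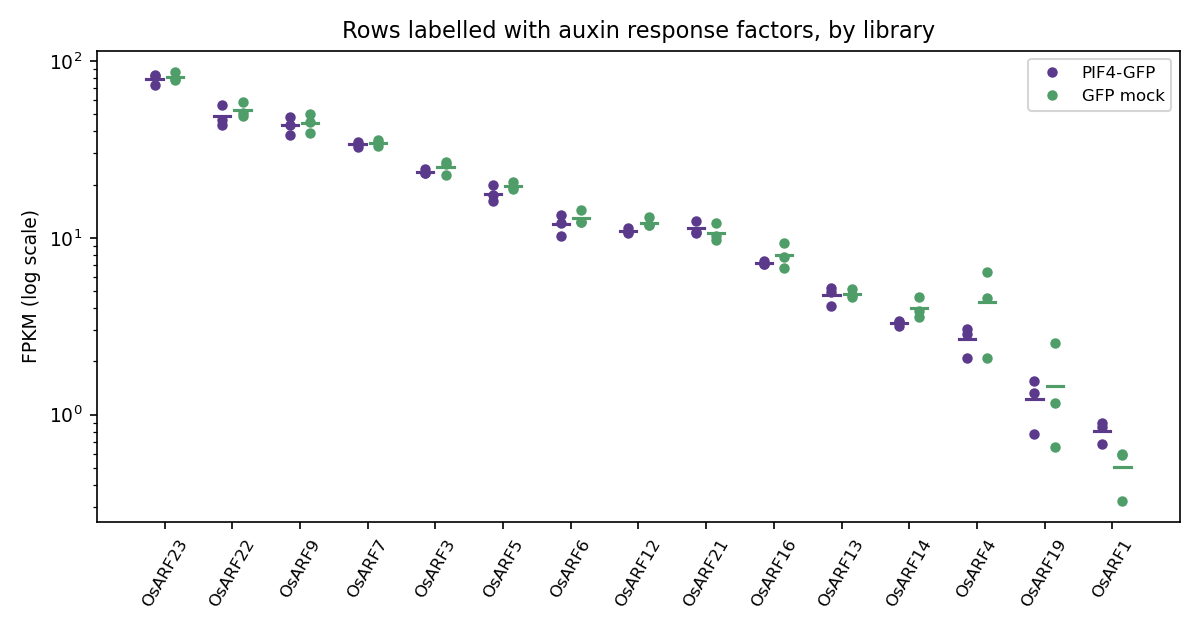
FPKM (log scale) in each library for the 15 rows labelled with an ARF that averaged at least 0.5 FPKM, ordered by mean; points are libraries, short lines group means (3 libraries each). The groups overlap in all rows except OsARF12 and OsARF14, lower in PIF4-GFP, and OsARF1, higher. Of all 847 rows in the fit, which leaves out OsARF1, 7.91% lay lower and 1.18% higher without overlap.

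Among the 14 ARF rows that entered the fit, the smallest p-values belonged to OsARF4, OsARF14, OsARF12 and OsARF5, and none passed. The row of OsARF4 had 2.85, 2.1 and 3.05 FPKM in PIF4-GFP and 4.54, 2.1 and 6.41 in GFP mock. One mock library was as low as the PIF4-GFP ones, so that the difference of -0.46 (SE 0.24, limma adjusted p = 0.895), from 11 to 33 reads per library, became -0.19 without GFP mock replicate 3 and -0.81 without GFP mock replicate 2. OsARF14 had 3.35, 3.4 and 3.18 FPKM against 3.56, 4.64 and 3.86, with no overlap and a difference of -0.21 (SE 0.13, limma adjusted p = 0.895), but only 17 to 22 reads. It was -0.13 without GFP mock replicate 2. OsARF12 had 10.8, 10.7 and 11.3 FPKM against 11.8, 11.8 and 13.1, also without overlap and 0.15 lower on the log2 scale (difference -0.15, SE 0.10, limma adjusted p = 0.895). Single rows of 3 against 3 libraries cannot fall below a two-sided exact permutation p of 0.1, which these 2 rows reached.

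Of the 24 rows 14 passed the filter of at least 1 FPKM in 3 libraries and entered the fit. Limma called 0 of these 14 at an adjusted p under 0.05, and 0 had an unadjusted p under 0.05, where the background over all 847 rows was 0.0% and 3.9%. The PIF4-GFP mean was below the mock mean in 13 of 14 (background 79.5%), and in 9 of 14 once library medians were made equal (background 42.7%). In 2 of 14 all PIF4-GFP libraries lay below all GFP mock libraries (background 7.91%), and in 0 of 14 above (1.18%). The median difference was -0.10 for the ARF rows and -0.06 for all rows, and the differences ran from -0.46 for OsARF4 to 0.08 for OsARF21. The smallest adjusted p of the 14 was 0.895.

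The remaining 10 rows were low. The row of OsARF1 had 0.685, 0.854 and 0.894 FPKM in PIF4-GFP and 0.59, 0.596 and 0.326 in GFP mock, from 7 to 22 reads. Its groups did not overlap, with PIF4-GFP higher, as in 1.18% of the 847 rows of the fit. It lay under the filter, and that share was not counted for rows under the filter. In the fit without a filter, over 941 rows, the row of OsARF1 was 0.27 higher in PIF4-GFP (SE 0.11). Its limma p was 0.0332 unadjusted, smaller than that of any fitted ARF row, and 0.875 adjusted, and it did not pass. The rows of OsARF2, OsARF8, OsARF15, OsARF17, OsARF24, OsARF25 and 1 of the 2 of OsARF21 were listed at 0 in all 6 libraries, 29.2% of the ARF rows, against 20.1% of all rows. OsARF10 was above 0 in 2 PIF4-GFP libraries, at 0.174 and 0.0609 FPKM, and OsARF18 in 1 mock library, at 0.0503 FPKM. Each gene named on these 10 rows had a promoter peak in the list, as did 71.6% of the loci in the expression tables. Since the values are not those of identified transcripts, low level and peak were not related to each other.

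OsARF16, the ARF without a listed peak, had 7.09, 7.12 and 7.38 FPKM in PIF4-GFP and 6.79, 7.75 and 9.38 in GFP mock. These values overlapped, and the row differed by -0.12 (SE 0.12, limma adjusted p = 0.895). The difference was -0.01 without GFP mock replicate 3 and -0.22 without GFP mock replicate 1. The row of Os01g0924400, described as similar to an auxin-induced basic helix-loop-helix factor, is the only other row whose description names auxin and was picked for that. Its promoter peak measured 1400 bp, from 40477200 to 40478599 on chromosome 1. The row held 29.7, 31.9 and 31.9 FPKM against 33.3, 32.6 and 33.9 FPKM and was not among the members.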

How the data were processed

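The deposited peak list names a locus, coordinates, a class and a distance from the gene's start for each peak, without a score; other than these coordinates it holds no measured value. Per the submitters' processing notes, Bowtie 0.12.2, HISAT2 2.0 and StringTie 1.3.0 were used, with no role or order, and the mouse build mm8 is named, although loci are those of rice. The sources used here do not name peak caller, threshold or rice build; coordinates are printed as listed. The deposited tables give FPKM values per gene and library, a unit taken from the values. Whole reads, library totals and row lengths were solved from them (tolerance 0.0001 reads; tested on simulated data).

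Peaks were joined to members by locus number; extents come from the listed distance and width. Shares carry Wilson 95% intervals for counting error. Groups were compared with limma 3.58.1 (R 4.3.3, mean-variance trend) on log2(FPKM + 1), keeping rows that reached 1 FPKM in 3 libraries, two-sided, Benjamini-Hochberg over 847 rows, threshold 0.05, which was tested on simulated data. That scale understates changes of low rows. Other work used Python 3.11.15 with pandas 2.3.3, scipy 1.17.1, numpy 2.4.6 and, for plots, matplotlib 3.10.9. Of 56 members, 51 matched a RefSeq name (assembly ASM3414082v1).

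The members and lists (ARF types, small RNA targets) were chosen with earlier results of these data known. Named were members with no peak, with 2 peaks, the widest, narrowest and most displaced peaks of each family, and neighbouring members. Of the rows in the fit, the 6 highest and the 4 of smallest p were named. Lists of auxin receptors, co-repressors and GH3 enzymes are not reported, since no source used here pairs their loci with names. Alternatives were other peak definitions, the pseudocount, the filter, centring, the replicate block and leaving out each library.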

Additional observations from a re-analysis of the deposited data

How the results depend on the processing

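Of the alternatives for the peak counts, 1 moved a count by over 1.5 times: with a width of at least 1000 bp, 11 instead of 17 Aux/IAA loci had a promoter peak, since 6 of these peaks are narrower. Restricting the description to promoter peaks, or to the widest peak per locus, moved the median distance from 448 to 384 bp for ARFs and from 238.5 to 227 bp for Aux/IAA genes, and the median Aux/IAA width from 1100 to 1200 bp, by construction; the ARF median width stayed at 1800 bp. Over all rows, limma passed 0 rows with every library, 1 with the replicate block, and 0 to 2 when 1 library was left out (2 without PIF4-GFP replicate 2); 0 ARF rows passed in any of these. Same-numbered libraries did not deviate together in every pair (correlations of 0.111, 0.156 and -0.088), so the numbers were not taken to pair them. The choice mattered for unadjusted limma p-values: 89 rows were under 0.05 with the replicate block, against 33 without it. Centring each library on its median turned the log2 difference of OsARF7 to 0.06, OsARF9 to 0.03, OsARF13 to 0.05 and OsARF23 to 0.04. Leaving out 1 library turned OsARF7 (-0.05 to 0.01), OsARF9 (-0.14 to 0.03), OsARF13 (-0.08 to 0.06), OsARF19 (-0.33 to 0.21) and OsARF23 (-0.07 to 0.02). Centring also moved OsARF14 from -0.21 to -0.13, OsARF12 from -0.15 to -0.07, OsARF5 from -0.14 to -0.06 and OsARF16 from -0.12 to -0.04. In all, 126 of 140 values of single rows kept their direction and side of the threshold; the cause of the changes was not tested. A peak list without replicates gives no error for any peak.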
